A study of Mus musculus with 3 samples.

Results

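LLC/luc BM2nd cells were set against LLC/luc BM1st cells, the second against the first round of selection for growth in bone, to see which transcripts the second round gained, lost or turned back. LLC/luc is the Lewis lung carcinoma line of C57BL/6 mice carrying a luciferase gene, and all 3 lines of the series carry it. BM1st cells were grown out in culture from lesions of the tibia in C57BL/6 hosts after parental LLC/luc cells had been given by intracardiac injection, and BM2nd cells were grown out from lesions that formed after BM1st cells had been injected in the same way. The lines were kept in DMEM with serum before RNA was taken. Each round left 1 cultured line, and each line was read on 1 Illumina mouse bead array, so differences stand without a replicate check and without a p-value, and the precision is limited by the number of arrays. A culture from lesions can also hold host cells, and in such a bulk sample fewer cells of a type and less RNA per cell cannot be told apart.

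Each gene was read from its brightest probe over the 3 arrays, and it was compared when it lay above background on the BM1st or the BM2nd array. Background was the 95th percentile of 1504 probes for olfactory and vomeronasal receptors, genes that these cells are not known to use, and came to 109.8 on the BM1st and 107 on the BM2nd array. This gave 10562 of 19057 named genes, of which 9006 were above background on both arrays, 543 on BM1st alone and 1013 on BM2nd alone. Just above the limit was Bmp8a, at 109.8 and 92.8, and just below it the ribosomal gene Rpsa, at 93.4 and 107. A gene was called higher where its log2 BM2nd/BM1st intensity ratio was above 1, and lower where it was below -1, a 2-fold difference. The deposited intensities are linear, with no background taken off, so that for dim genes the ratio understates the change in RNA.

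A cell that divides makes its replication proteins and clustered histones in S phase and its spindle and cytokinesis proteins in G2 and mitosis, so these transcripts go up and down together with the share of cells in those phases. Cells also adjust transcription to supply and stress. The factor ATF4 turns on genes of amino acid synthesis and transport when translation initiation is slowed, and NRF2 turns on genes that make glutathione and NADPH when oxidants or electrophiles modify its inhibitor KEAP1. Tumour cells in bone lie in a matrix of collagen, proteoglycans and mineral-binding proteins, which they can also produce.

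Of the 10562 genes, 318 were higher in BM2nd than in BM1st cells, or 3.01% of those compared, and 188 were lower, or 1.78%. The median log2 ratio was -0.012 and the robust SD over genes 0.33. Among the receptor probes the ratios ran from -0.51 to 0.41 with an SD of 0.12, and none was past the threshold. Only BM2nd was above background for 19 of the higher genes, and only BM1st for 3 of the lower ones, and those of them named below are given as a bound against the background of the other array. The threshold cuts through a continuous range. Melk, at 98.2 in BM1st and 197 in BM2nd cells, was just past it and Rnft2, at 115 and 231, just within it, and on the lower side P4ha1, at 796 and 398, was just past it and Lrrk2, at 1007 and 504, just within it.

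The split between the lines spans the whole range of brightness. Spon2, which encodes a secreted matrix protein of the spondin family, had the highest ratio of all genes compared. Its intensity was 249 in parental, 127 in BM1st and 1728 in BM2nd cells, a 13.6-fold difference between the bone lines and a log2 ratio of 3.77. Its other probe, at 112 and 91.5, gave -0.29 close to background, so the large value rests on 1 probe. Fgf21, a hormone gene that ATF4 turns on in stressed cells, had the lowest ratio. Its intensity was 332 in parental, 1251 in BM1st and 117 in BM2nd cells, 10.7-fold less in BM2nd than in BM1st cells, with a log2 ratio of -3.42.

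**Figure D1:**
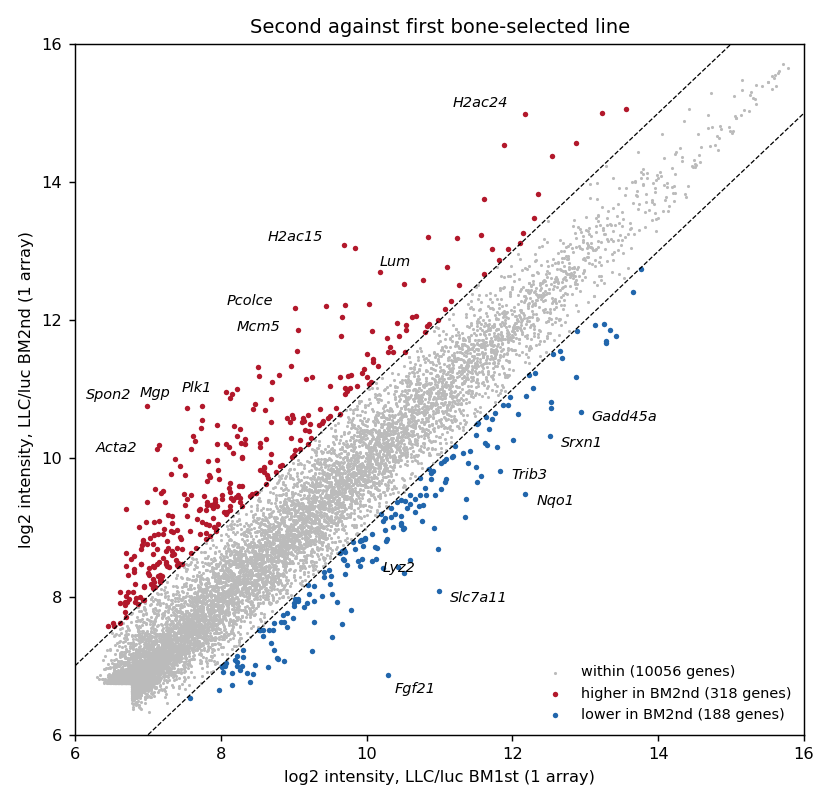
Log2 intensity on the BM1st array (horizontal axis) and on the BM2nd array (vertical axis) for the 10562 genes above background on either, 1 point per gene and 1 array per line. Dashed lines mark log2 ratios of 1 and -1; the 318 higher genes are red and the 188 lower genes blue, and the named points include Spon2 at 3.77 and Fgf21 at -3.42.

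The parental array shows what became of the first round's differences. Against parental cells 2.04% of 10377 genes were higher and 1.79% lower in BM1st cells, and 1.83% of 10579 were higher and 1.53% lower in BM2nd cells. Of the 318 higher genes, 130 had been lower in BM1st than in parental cells by more than the threshold, 176 had stayed within it and 12 had already been higher. Of the 188 lower genes, 70 had been higher in BM1st than in parental cells, 114 had stayed within the threshold and 4 had already been lower. The counts of reversed genes, 200 of 506 or 39.5%, rest on the BM1st array in both ratios, so that any error of that array enters both with opposite sign, and they are a description of these 3 arrays. In all, 212 compared genes were above parental cells in the first round and 184 below. The genes that had dropped had a median log2 ratio of 0.20 to parental cells in BM2nd, and those that had gone up one of 0.76. Both groups were picked on the BM1st array, so error of that array alone would also leave BM2nd nearer to parental cells.

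Reversal in part could be counted only where the first-round log2 difference exceeded 2 thresholds, 1 regained and 1 still missing. First-round ratios ran from -2.70 to 5.14, so the higher side had less room for it, and the sides are not compared. Of the 130 genes reversed on the higher side, 121 came within the threshold of parental cells, 7 passed them and 2, Ankrd1 and Nnmt, came only part of the way. The 7 that passed were the matrix genes Col6a1 and Pcolce, the S phase genes Tk1, Uhrf1 and Pclaf, the mitotic entry gene Cdca3, and D17H6S56E-5, which is named in the annotation by its locus only. On the lower side 59 of 70 came within the threshold, Fgf21, Mllt11 and Csn3 went below parental cells, and 8 stopped part of the way. Those 8 were Nqo1, Ampd3, Lyz1, Lyz2, Laptm5, Nptx1, Slco4a1 and Slpi. Ampd3, an AMP deaminase gene, was at 284, 3539.8 and 1143 in parental, BM1st and BM2nd cells, and Slpi, which encodes a secreted inhibitor of leukocyte proteases, was at 149.8, 1219 and 561. Genes of these groups that belong to no list, such as Ampd3, Slpi and Slco4a1, were chosen after their values were seen.

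**Figure D2:**
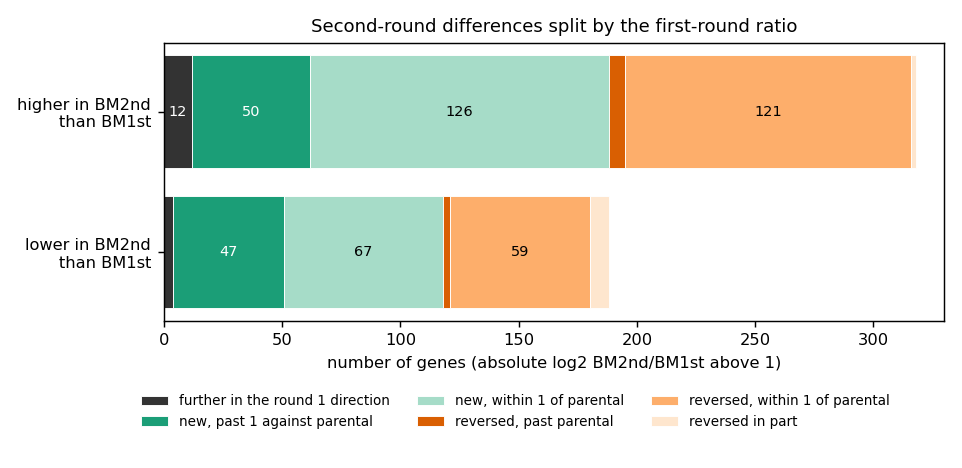
Number of genes (horizontal axis) higher or lower in BM2nd than in BM1st cells by an absolute log2 ratio above 1, split by their BM1st/parental and BM2nd/parental ratios. Of the 318 higher genes 130 reverse a first-round decrease and 176 are new (126 of them within the threshold of parental cells), and of the 188 lower genes 70 reverse an increase and 114 are new (67 within).

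Of all lists with more than 10 members above background, that of mitosis and cytokinesis had the highest share of higher genes. All its 31 members above background were above 0, 23 of them passed the threshold and none was lower. Their median log2 ratio was 1.88, after -1.36 in the first round, which left BM2nd cells at 0.29 against parental cells. Of the 23, 22 reversed a decrease. The kinase gene Plk1, which drives entry into and progress through mitosis, went from 1142 in parental to 285 in BM1st and 1953 in BM2nd cells, a log2 BM2nd/BM1st ratio of 2.77. Nusap1, a spindle protein gene, was at 1049, 196 and 1281, and Birc5, which encodes survivin of the chromosomal passenger complex, at 1538, 369 and 2334. Kif23, the motor of the central spindle, was at 2162, 526 and 2998, with a ratio of 2.51. Cdc20, which activates the anaphase-promoting complex, had a ratio of 2.40, Top2a, which untangles chromosomes, 2.38, and Cdk1, the mitotic kinase itself, 1.12. In each of these genes the BM1st array was the lowest of the 3 and the BM2nd array was near or above the parental one.

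The replication machinery moved in the same direction. Of 40 members above background, 16 were higher and none lower, and the median was 0.89 against -0.012 over all genes. Averaged over all probes of a gene 9 were higher, with a median of 0.62, and with the background subtracted 22 were higher and 1 lower. Mcm5, a subunit of the replicative helicase, was at 2857 in parental, 535 in BM1st and 3728 in BM2nd cells, a ratio of 2.80. Uhrf1, which carries DNA methylation over to the new strand, was at 1904, 808 and 4245, Lig1, the ligase of the lagging strand, at 683, 323 and 1251, and Mcm10 at 880.5, 228 and 866. The helicase genes Mcm3 and Mcm4 also passed, at 1.43 and 1.13, whereas Mcm6 and Mcm7 stayed within the threshold at 0.89 and 0.91. Of the 40 members 37 were above 0 and 3 below it. The 3 were Pold2, Gins3 and the licensing factor gene Cdt1, which was the farthest below, at 3979.6, 5609 and 2995 with a ratio of -0.91.

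Nucleotide synthesis was uneven. Of 18 genes above background 4 were higher and none was lower, but the list median was 0.0024. The 4 were Tk1 and Tyms, the thymidine kinase and thymidylate synthase that supply dTTP, and Rrm1 and Rrm2, the subunits of ribonucleotide reductase. Tk1 was at 755, 213 and 1731, a ratio of 3.02, and Tyms at 1147, 212 and 1394, a ratio of 2.72. Rrm1 and Rrm2 had ratios of 1.72 and 1.33. Cad, which starts pyrimidine synthesis in every phase of the cycle, went the other way without passing, at -0.89. For Tk1 and Tyms a second probe also passed, at 1.33 and 1.01, while their dimmer probes lay near background.

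Of 48 clustered histone genes above background, 20 were higher, or 32 with the background subtracted, and none lower, and the median was 0.87 after -0.50 in the first round. Of the 20, 10 reversed a decrease past the threshold and 10 were new. H2A genes had the highest ratios. H2ac15 was at 5347, 823 and 8725 in parental, BM1st and BM2nd cells, a ratio of 3.41, and H2ac12 at 5377, 919.7 and 8492, a ratio of 3.21. H2ac24 and H2ac11 followed at 2.81 and 2.75. The coding sequences of these genes are nearly identical, so which of them a probe reads is uncertain and the genes are not separate measurements. The H2B genes that passed lay lower, between 1.01 for H2bc11 and 1.30 for H2bc7. H1f10, a linker histone outside the clustered list, was below background in BM1st cells and at least 3.6-fold higher in BM2nd cells.

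Regulators of G1 had 1 member past the threshold. Of 18 G1 cyclins and E2F family genes above background none was higher and 1, Myc, was lower, and the median was 0.042. Over all genes 3.01% were higher and 1.78% lower, so a list this small could show 1 or none. With the background subtracted 3 of the 18 were higher and 2 lower, where over all genes 1028 were higher and 864 lower. Of the 18, 11 were above 0 and 7 below, with Rbl1 at 0.93 and Cdk2 at 0.76. Myc, a growth-promoting transcription factor gene, was at 1245, 1627 and 679, a ratio of -1.26. Of 16 DNA repair genes 2 were higher and none lower, and the median was 0.43. They were Fancd2, of the Fanconi anaemia pathway, at 1.37, and Rad54l, of homologous recombination, which was below background in BM1st cells and at least 3.42-fold higher in BM2nd cells. Of 16 p53 targets and CDK inhibitors 1 was higher and 2 were lower, with 12 of the 16 below 0 and a median of -0.37. Gadd45a, a growth arrest gene induced by DNA damage and by ATF4, was at 3997, 7837 and 1627, a ratio of -2.27, and its other probe gave -2.08. Mdm2, which encodes the ligase that degrades p53, had a ratio of -1.02 and Cdkn1a, the CDK inhibitor p21, one of -0.89, short of the threshold. Cdkn2c, the inhibitor p18 of CDK4 and CDK6, was higher, at 458, 481 and 1536.

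Promoter sequences of the RefSeq table for GRCm38.p6 were available for 8598 of the genes compared, each a window of 300 bases around the start. The letters of known elements were searched in them on both strands, and a match describes the letters and not a bound site. For E2F the letters TTTCGCGC, TTTGGCGC, TTTCCCGC and TTTGGCGG were searched. They were found in 5.04% of the genes compared, in 16 of 31 replication genes above background and in 6 of the 12 of these past the threshold that had a promoter. Of 18 nucleotide synthesis genes above background 1 held them, and none of the 4 past the threshold did. For the CHR, an element of genes expressed in G2 and mitosis, TTTGAA was searched. It was in 14.4% of the genes compared and in 19 of 25 mitosis genes, 16 of 19 past the threshold. CCAAT, the letters bound by NF-Y, was in 43.1% of the genes compared, in 36 of 43 histone genes and in all 18 of those past the threshold. The list members are in part known targets of these factors, so that the high shares were to be found whatever the arrays showed.

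The following are the 250 bases upstream of the start for Mcm5 at chr8:75109259-75109508 on the plus strand and Uhrf1 at chr17:56304063-56304312 on the plus strand, shown because they are the replication genes with the highest ratios, with the E2F letters in capitals. In Mcm5 the letters match once on each strand, and both matches overlap.
Mcm5: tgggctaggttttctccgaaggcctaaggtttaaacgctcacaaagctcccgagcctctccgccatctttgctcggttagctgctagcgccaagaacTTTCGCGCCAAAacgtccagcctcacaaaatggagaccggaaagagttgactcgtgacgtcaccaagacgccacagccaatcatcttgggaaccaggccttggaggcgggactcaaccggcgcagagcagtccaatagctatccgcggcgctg
Uhrf1: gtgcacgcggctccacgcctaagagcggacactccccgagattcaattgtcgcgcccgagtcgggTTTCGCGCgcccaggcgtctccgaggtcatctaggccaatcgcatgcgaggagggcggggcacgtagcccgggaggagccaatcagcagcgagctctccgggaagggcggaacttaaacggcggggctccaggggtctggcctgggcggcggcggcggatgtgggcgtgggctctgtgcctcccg
Cdc20 at chr4:118437344-118437593 on the minus strand and Kif11 at chr19:37376132-37376381 on the plus strand stand for the mitosis genes, and H2ac15 at chr13:21753913-21754162 on the minus strand for the histones. Capitals mark TTTGAA and CCAAT in Cdc20 and Kif11 and CCAAT in H2ac15, on either strand.
Cdc20: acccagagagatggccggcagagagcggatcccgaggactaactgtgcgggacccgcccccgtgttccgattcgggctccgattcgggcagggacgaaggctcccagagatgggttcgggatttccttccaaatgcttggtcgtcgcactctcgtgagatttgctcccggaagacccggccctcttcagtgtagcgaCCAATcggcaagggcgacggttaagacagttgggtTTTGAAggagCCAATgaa
Kif11: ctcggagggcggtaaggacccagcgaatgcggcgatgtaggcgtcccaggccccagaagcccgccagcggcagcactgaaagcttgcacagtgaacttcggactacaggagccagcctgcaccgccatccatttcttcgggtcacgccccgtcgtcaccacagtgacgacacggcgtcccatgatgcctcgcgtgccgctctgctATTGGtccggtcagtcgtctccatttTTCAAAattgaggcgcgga
H2ac15: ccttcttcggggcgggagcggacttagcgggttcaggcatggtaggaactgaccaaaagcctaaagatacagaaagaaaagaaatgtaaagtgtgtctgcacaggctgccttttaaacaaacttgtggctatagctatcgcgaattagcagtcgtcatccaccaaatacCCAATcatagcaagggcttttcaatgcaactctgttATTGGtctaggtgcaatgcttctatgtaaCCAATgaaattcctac

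Immediate early genes, which serum and growth factors induce within minutes without new protein synthesis, also had higher members. Of 16 above background 7 were higher and none lower, and the median was 0.70 after -0.67 in the first round. Fos, which encodes a subunit of AP-1, was at 7346 in parental, 1836 in BM1st and 9493 in BM2nd cells, a ratio of 2.37. Egr1, a zinc finger factor gene induced through the serum response factor, was at 10362, 3138 and 13841, and Fosb at 4207, 1458 and 5877. Both reversed a first-round decrease, as did Klf2 at 1593, 369.9 and 1192. Dusp1, a phosphatase gene that ends MAP kinase signals, did not follow that course. It was at 2193 and 2205 in parental and BM1st cells and at 6964 in BM2nd cells, a new difference of 1.66. Egr2 and Egr3 had ratios of 1.58 and 1.38. Of the 5 list members with another probe above background 2 had it above 0 and 3 below, with a median of -0.068 and none past the threshold. The letters searched for the element of the serum response factor were in none of 14 promoters of the list, 5 of them of genes past the threshold. They were in only 4 of the 8598 genes compared that had a promoter, or 0.0465%. Letters this rare cannot tell whether the list holds the element.

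**Figure D3:**
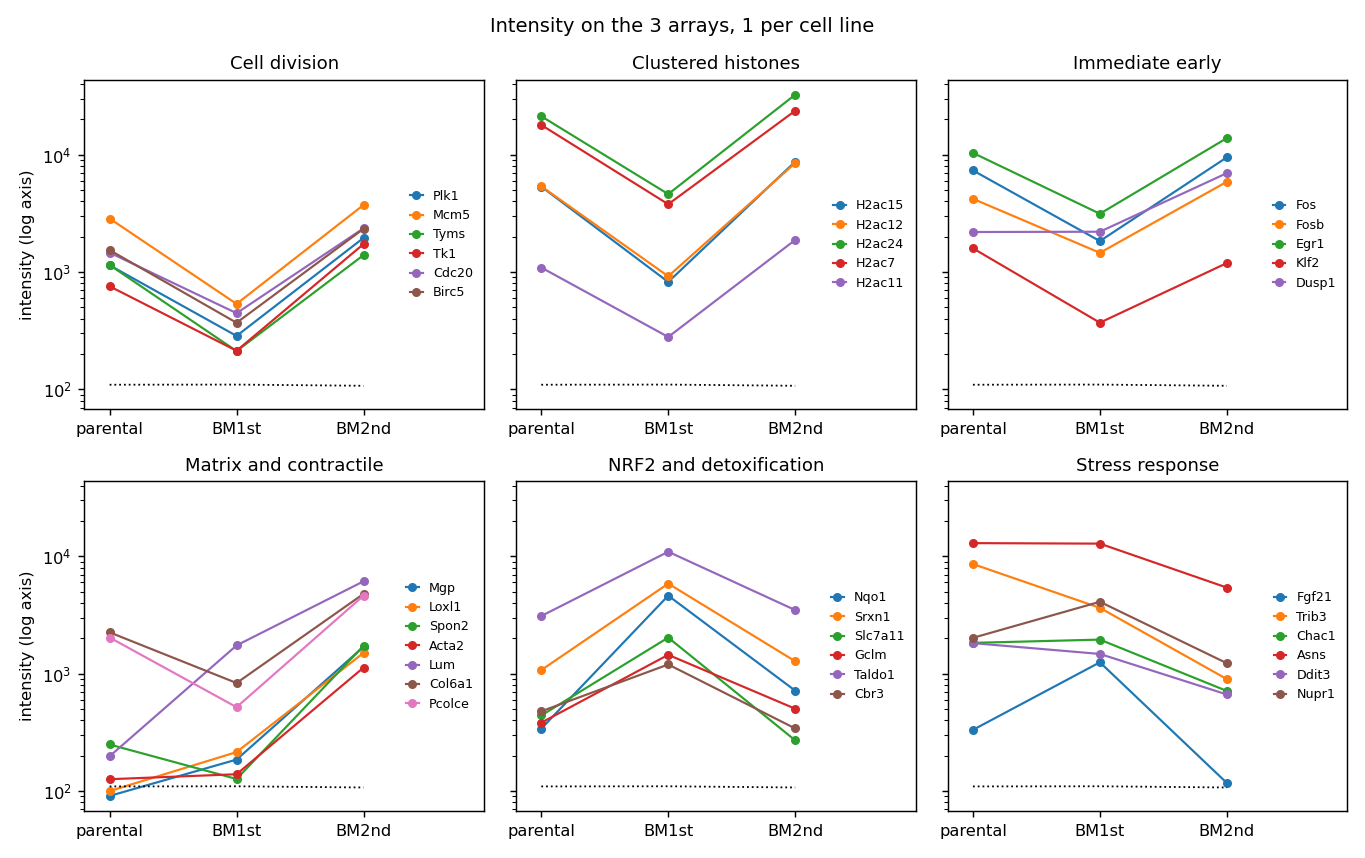
Intensity (vertical log axis) in parental, BM1st and BM2nd cells, 1 array each, for genes of 6 groups, with the background of each array as a dotted line. The cell division, histone and most immediate early genes are lowest on the BM1st array, the NRF2 genes are highest there, the matrix and contractile genes are highest on the BM2nd array, and most stress response genes are lowest on it.

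Several lists of matrix genes had higher members, some of them far beyond the parental level. Of 4 small leucine-rich proteoglycans above background, out of 12 named, 2 were higher and none was lower. Lum, which encodes lumican, a spacer of collagen fibrils, was at 198 in parental, 1742 in BM1st and 6133 in BM2nd cells, a ratio of 1.82 in the second round after 3.14 in the first, and its other probe gave 1.83. Ogn, the gene of osteoglycin, had been lower in BM1st cells and came back, at 1181, 277 and 1153. Dcn, the gene of decorin, kept its first-round level, at 1027, 6259 and 6174, a second-round ratio of -0.02. Bgn, the gene of biglycan, was at 126, 654 and 1168 and did not pass, at 0.84. The 4 genes thus show 4 courses: a gain in both rounds, a loss made good, a gain held, and a gain whose second step stayed within the threshold.

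Of 14 collagen genes above background 5 were higher and none lower, and the median was 0.30. Col6a1 and Col6a2, which encode chains of the same beaded microfibril, moved together. Col6a1 was at 2252, 833 and 4792, a ratio of 2.52, and Col6a2 at 390.3, 145 and 725, a ratio of 2.32. Another Col6a1 probe gave 2.27, whereas dim probes of both genes gave 0.40 and 0.42. Col1a1, the main collagen of bone, was at 96, 119.9 and 412, but its partner chain Col1a2 was not above background on either bone array, at 107 and 104. Col3a1, the fibrillar collagen of soft tissue, was at 1107, 833 and 1946, and Col2a1, of cartilage, was dim at 106, 91.6 and 196.

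Enzymes that process collagen split into opposite directions. Of 12 above background 2 were higher and 1 was lower. Pcolce, which enhances the cleavage of procollagen, was at 2035, 519 and 4625, a ratio of 3.16. Loxl1, an oxidase that crosslinks elastin, was below background in parental cells and at 215 and 1505 in the bone lines, a ratio of 2.81, and its second probe was below background. The prolyl hydroxylase subunit gene P4ha1 was at 392, 796 and 398, just past the threshold on the lower side, and the lysyl hydroxylase gene Plod2 had a ratio of -0.82. Both of these hydroxylase genes are also known to be induced by hypoxia.

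Of 21 matrix glycoproteins above background 6 were higher and 1 was lower, with a median of 0.20, and averaged over all probes 3 were higher. Mgp, whose product keeps soft tissue from calcifying, was at 90.8 in parental, 185 in BM1st and 1696 in BM2nd cells, so most of its difference came in the second round, at 3.19. Dpt, which encodes dermatopontin, a decorin-binding protein, was at 142, 418 and 2213, a ratio of 2.40. Tgfbi, a TGF-beta-induced adhesion protein gene, reached 1478 from 413, Sparc, the gene of osteonectin, 3878 from 1818, and Fbln1 601 from 271. Sparc was at 2734 in parental cells and Fbln1 at 544, so these were near the level of the starting line. Tnc, the gene of tenascin C, was below background in BM1st cells and at 269 in BM2nd cells, at least 2.45-fold higher. Lamc1, a laminin chain of basement membranes, was the lower one, at 2168, 3472 and 1608, and Lama5 and Thbs2 had ratios of -0.83 and -0.84 without passing.

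Some genes on the list of contractile genes of smooth muscle and myofibroblasts were higher. Of 9 above background 3 were higher and none was lower, and averaged over all probes 1 was higher. The median of the 9 was 0.27, with 5 above 0 and 4 below. Without the background filter the median of the list was -0.0073. Acta2, smooth muscle actin, was at 126 and 139 in parental and BM1st cells and 1128 in BM2nd cells, a ratio of 3.02. Its 5 other probes were dim, and the 3 of them above background gave 0.30, 0.38 and 0.89, of the same sign but within the threshold. Ccn1, a matricellular protein gene that YAP and the serum response factor induce, was at 545, 352 and 1768, and Mylk, the myosin light chain kinase gene, at 249, 147 and 478. Ankrd1, another YAP target, was at 710.1, 145 and 303, so it regained only a part of its parental level.

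None of 13 metalloproteinase and TIMP genes above background and none of 14 integrin genes passed the threshold in either direction, with medians of -0.10 and -0.093. So few genes could show none at the shares over all genes, 3.01% and 1.78%, and with the background subtracted 2 and 3 of them were lower. Mmp3, a stromelysin gene, kept its first-round level, at 358, 1732 and 1626. Mmp12 was above background in BM1st cells alone and Mmp10 in parental and BM1st cells, and Mmp10 was at least 1.76-fold lower in BM2nd cells. Itga6, a laminin receptor subunit, had the integrin ratio farthest from 0, at -0.91. Of 4 genes of the plasminogen system 1 was higher, the tissue activator Plat at 495, 224 and 644. The urokinase gene Plau and its receptor gene Plaur had ratios of -0.94 and -0.88, with Plau going down at both steps, from 841 to 554 and 288.

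Among 15 mesenchymal genes and EMT factors only S100a4 passed, at 782, 413 and 1853, and the median was 0.15. With 3.01% of all genes higher and 1.78% lower, this list and the 2 that follow could show 1 or none. S100a4 encodes a calcium-binding protein of motile cells. Of 10 epithelial genes above background only Krt8 passed, at 1381, 997 and 2509, while its pairing keratin Krt18 had a ratio of -0.84, opposite in sign. Of 10 S100 genes S100a4 was higher and S100a7a lower, at 299 and 133 in the bone lines.

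Signals and their receptors showed single genes rather than lists. Of 21 growth factor and receptor genes above background 4 were higher and 1 was lower, with a median of -0.0067, and averaged over all probes 1 was higher and none lower. Ptn, the gene of the heparin-binding growth factor pleiotrophin, was at 1243 in parental, 5201 in BM1st and 14580.2 in BM2nd cells and so went up at both steps. Igfbp7, which encodes a binding protein for insulin-like growth factors, was at 153, 227 and 997, and its 4 other probes were below background. Vegfd, the lymphangiogenic factor gene, was at 166, 149.6 and 503. Egfr and its ligand gene Hbegf went opposite ways, Egfr at 1101, 495 and 1482 and Hbegf at 1031, 585 and 288.

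Of 21 genes of TGF-beta and BMP signalling 2 were higher and none was lower. They were Id1 and Id3, immediate targets of BMP receptors, at 641, 278 and 803 and at 530.0, 386 and 929.8. Over all genes 3.01% were higher and 1.78% lower, so this list and the small ones that follow could show few or none. Of 15 WNT pathway genes 1 was higher, Ccn4, a WNT-induced matricellular gene, at 162 and 491 in the bone lines. Of 4 osteolytic factors above background, out of 13 named, 1 was lower and none was higher. Il11, a cytokine gene of osteoclast formation, was at 706, 510.4 and 206, a ratio of -1.31. Tnfsf11, the gene of RANKL, was at 108 in BM2nd cells, at the edge of background, and Il6, Dkk1 and Tnfrsf11b were below background on both arrays. Csf1, the macrophage growth factor gene, was at 607, 714 and 675. Of 6 osteoblast and mineralisation genes Mgp was higher and Phex, a peptidase gene of mineralising cells, was lower, at 225, 611 and 149.

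The lists with the most lower members were those of stress responses. Of 18 genes of the integrated stress response above background none was higher and 9 were lower, and 17 of the 18 were below 0. The median was -0.999, after -0.20 in the first round, so that BM2nd cells stood at -1.16 against parental cells. Of the 9, 6 were new, 2 reversed an increase and Trib3 had already been lower. Trib3, a pseudokinase gene that ATF4 and CHOP induce, was at 8611 in parental, 3642 in BM1st and 899.9 in BM2nd cells, and its other probes gave -1.92 and -2.02. Nupr1, a stress-induced chromatin protein gene, was at 2022, 4104 and 1229 and went up before it went down. Chac1, which degrades glutathione, was at 1832, 1953 and 713. Asns, asparagine synthetase, was at 12978, 12849 and 5420.4, and Ddit3, the gene of CHOP, at 1823, 1474 and 665. Cth, of cysteine synthesis, had a ratio of -1.26, Vldlr -1.11 and Eif4ebp1 -1.01. Atf4 itself was at 6493 and 5172 in the bone lines, a ratio of -0.33.

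Genes that supply amino acids for translation leaned the same way with smaller differences. Of 19 aminoacyl-tRNA synthetase genes 17 were below 0 and 1 was lower, Sars, which charges serine tRNA, at 2775, 2736 and 1109. Their median was -0.51. Of 8 genes of serine, one-carbon and proline synthesis 7 were below 0 and 2 were lower. Mthfd2, of mitochondrial one-carbon metabolism, was at 9837, 9813 and 3967, and Aldh18a1, of proline synthesis, at 2542, 3282 and 1382. Of 14 amino acid transporter genes 1 was higher and 2 were lower, the latter Slc7a11 and Slc1a4. Slc1a4, a transporter of neutral amino acids, was at 927, 1425 and 528, and the glutamate transporter gene Slc1a3 was higher, at 209, 161 and 574.

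Several NRF2 targets and detoxification genes were lower after a first-round increase. Of 25 above background none was higher and 8 were lower in the second round, while 8 had been higher and none lower in the first, and 6 of the 8 lower genes reversed such an increase. The median was -0.23, much smaller than the differences of the genes that passed. Nqo1, the quinone reductase, was at 340.5 in parental, 4629 in BM1st and 717 in BM2nd cells, a ratio of -2.69 that left it above parental cells. Srxn1, which repairs oxidised peroxiredoxins, was at 1074, 5863 and 1278, and its other probes gave -2.07 and -1.57. Slc7a11, the cystine importer that feeds glutathione synthesis, was counted with the amino acid transporters and not in this list. It is a target of both NRF2 and ATF4 and was at 441, 2032 and 271, a ratio of -2.91. Gclm, of glutathione synthesis, was at 383, 1449 and 503, Taldo1, of the pentose phosphate pathway, at 3104, 10962 and 3488, and the carbonyl reductase gene Cbr3 at 478, 1199 and 342. The exporter gene Abcc4 had a ratio of -1.59, Gsta4 -1.09 and Txnrd1 -1.08. Of 13 list members with another probe above background 8 had it below 0, 2 of them past the threshold. Gstm2 and Ugt1a6a leaned the other way at 0.99 and 0.96 without passing, so the list did not move as one.

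The amino acid response element, which binds ATF4 with C/EBP partners, was searched as TGATGNAA. It was in 2.86% of the genes compared, in 7 of 16 genes of the integrated stress response and in 6 of the 7 past the threshold with a promoter, namely Fgf21, Trib3, Nupr1, Chac1, Asns and Vldlr, and in 5 of 12 synthetase genes. The core of the antioxidant element, TGACNNNGC, was in 16.6% of the genes compared, in 8 of 22 NRF2 and detoxification genes and in 4 of the 7 past the threshold. The 250 upstream bases below belong to Fgf21 at chr7:45615491-45615740 on the minus strand, Nupr1 at chr7:126625471-126625720 on the minus strand and Chac1 at chr2:119350992-119351241 on the plus strand, shown because they had some of the lowest ratios of the stress list, and to Gclm at chr3:122245307-122245556 on the plus strand for the NRF2 list. Capitals mark TGATGNAA in the first 3 and TGACNNNGC in Gclm, on either strand. No match overlaps another in these 4.
Fgf21: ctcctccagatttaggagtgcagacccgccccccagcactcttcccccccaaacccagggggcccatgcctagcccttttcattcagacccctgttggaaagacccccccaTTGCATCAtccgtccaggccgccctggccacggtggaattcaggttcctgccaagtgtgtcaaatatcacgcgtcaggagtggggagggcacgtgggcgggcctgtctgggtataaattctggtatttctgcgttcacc
Nupr1: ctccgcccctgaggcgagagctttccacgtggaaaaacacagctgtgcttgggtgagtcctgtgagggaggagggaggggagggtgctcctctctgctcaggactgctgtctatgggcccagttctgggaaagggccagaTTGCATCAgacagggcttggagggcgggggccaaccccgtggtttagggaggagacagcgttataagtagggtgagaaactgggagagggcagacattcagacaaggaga
Chac1: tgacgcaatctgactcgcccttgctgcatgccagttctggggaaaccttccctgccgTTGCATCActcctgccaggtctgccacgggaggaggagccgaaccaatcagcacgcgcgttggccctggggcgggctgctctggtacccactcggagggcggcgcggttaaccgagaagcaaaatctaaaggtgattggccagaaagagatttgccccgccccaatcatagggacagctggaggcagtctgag
Gclm: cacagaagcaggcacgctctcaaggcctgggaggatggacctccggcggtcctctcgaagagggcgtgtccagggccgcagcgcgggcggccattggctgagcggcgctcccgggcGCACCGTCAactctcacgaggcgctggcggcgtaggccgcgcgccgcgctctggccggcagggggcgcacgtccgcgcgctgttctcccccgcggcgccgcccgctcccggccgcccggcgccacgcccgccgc

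Lists of ER chaperones and of the lysosome had medians above 0 in the first round and below 0 in the second. Those of heat shock proteins and glycolysis were also above 0 in the first round and close to 0 in the second. Of 17 ER chaperone and unfolded protein response genes 14 were below 0 with a median of -0.48, after 0.45 in the first round, and 1, the ER stress gene Sdf2l1, was lower at 448, 849 and 353. None of 11 heat shock protein genes passed, and their median was -0.022, which left BM2nd cells at 0.32 against parental cells. Of 22 lysosome and autophagy genes 17 were below 0 with a median of -0.34 and 2 were lower. Npc1, which exports cholesterol from lysosomes, was at 1749, 4332 and 1597, and the autophagy gene Gabarapl1 at 1847, 3381 and 1523.

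Of 23 genes of glycolysis and hypoxia 1 was higher and 3 were lower, with a median of -0.066 after 0.71. That left BM2nd cells at a median of 0.53 against parental cells. Past the threshold against parental cells 7 of these genes were higher in BM1st cells and 4 in BM2nd cells. The glucose transporter gene Slc2a1 was at 3434, 6464 and 3013, and the phosphofructokinase gene Pfkp at 1042, 1506 and 624. Ankrd37, a target of HIF1, was at 169.7, 425 and 197. Aldoc, an aldolase gene, went the other way and was higher at both steps, at 83, 279.8 and 608. The hypoxia letters ACGTG were in 14 of 22 promoters of the list against 29.6% of the genes compared.

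**Figure D4:**
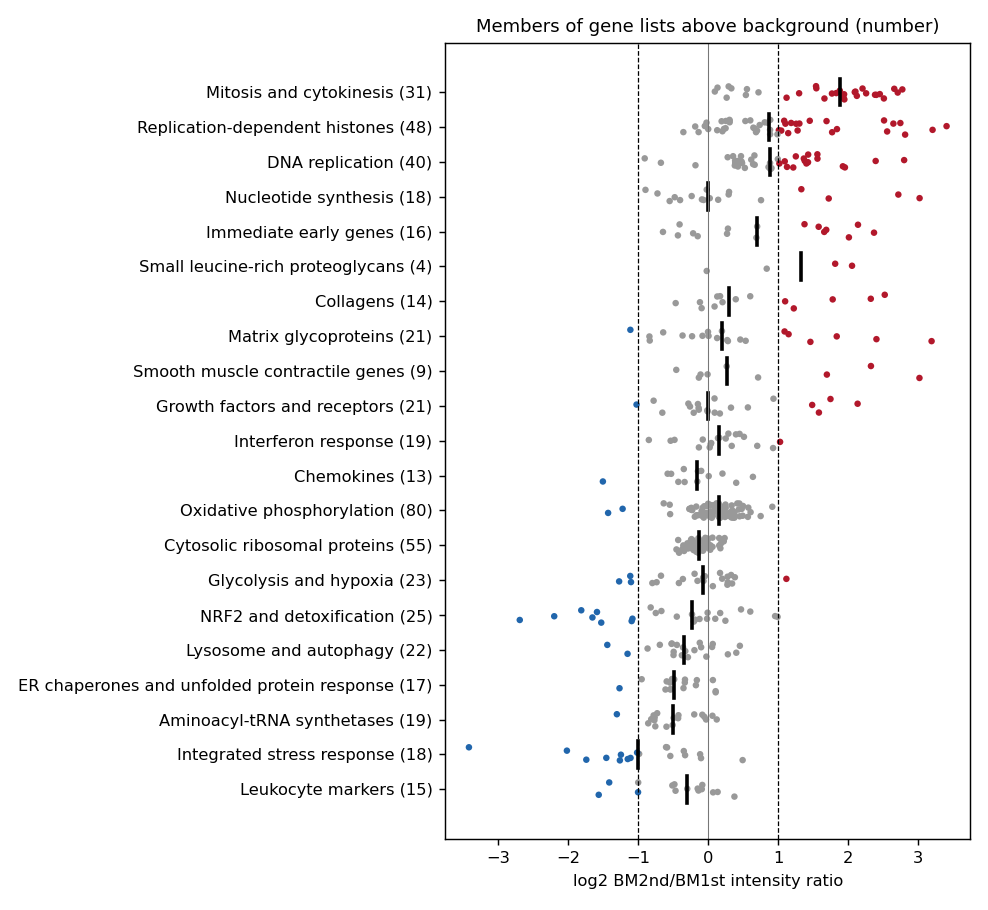
Log2 BM2nd/BM1st intensity ratio (horizontal axis) for members above background of 21 gene lists, 1 point per gene, with the number of such members in parentheses. Black bars are list medians, dashed lines mark 1 and -1, and members past them are red or blue; medians run from 1.88 for mitosis and cytokinesis to -0.999 for the integrated stress response.

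Inflammatory gene lists had at most 1 member each past the threshold. Over all genes 3.01% were higher and 1.78% lower, so lists this small could show 1 or none. With the background subtracted more genes passed, 1028 higher and 864 lower of all 10562. Then 6 interferon response genes were higher and 1 lower, and 1 chemokine gene was higher and 3 lower. Of the NF-kB list 1 was higher and 2 lower, and of the MHC class I list 2 were higher and none lower. Of 13 chemokine genes above background none was higher and 1 was lower, with a median of -0.15 after 0.73 in the first round, when 5 had been higher. Cxcl1, a neutrophil chemokine gene, was at 3497, 33698 and 38855, and Ccl7, a monocyte chemokine gene, at 358, 12628 and 8458. Ccl9, made mainly by myeloid cells, was the lower one, at 99, 424 and 149.8. Of 21 NF-kB subunits, inhibitors and targets only Zfp36 passed, at 955, 2415 and 9337. It encodes tristetraprolin, which destabilises cytokine mRNA, and is also an immediate early gene. Of 19 interferon response genes Parp14 was higher, at 1.03, and none was lower, and none of 12 MHC class I presentation genes passed, with a median of -0.082. The letters of the interferon-stimulated response element were in 11 of 16 promoters of the interferon list against 3.56% of the genes compared, and those of the NF-kB element in 3 of 16 of the NF-kB list and 2 of 9 of the chemokines against 0.477%.

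Lists of basic metabolism and of cell identity had few or no members past the threshold. With 3.01% of all genes higher and 1.78% lower, the smaller of these lists could show none, and the counts are not read as stability. None of 55 cytosolic ribosomal protein genes passed, with ratios from -0.45 to 0.24 and a median of -0.13. Of 80 oxidative phosphorylation genes none was higher and 2 were lower, or 2.5%, with a median of 0.16. Both had already been lower in the first round. Cox6a2, the heart and muscle form of a cytochrome oxidase subunit, was at 727, 297 and 127. Chchd10, a protein gene of the mitochondrial intermembrane space, went from 846 to 285 and then below background, at least 2.66-fold lower. None passed of 17 cholesterol synthesis and uptake genes (median 0.23), of 15 fatty acid genes (median 0.17), of 22 HOX genes (median 0.08) or of 8 imprinted genes (median -0.061). Hoxa2 came closest among the HOX genes, at 0.99. Of 16 apoptosis regulators only the inflammatory caspase gene Casp1 passed, at 165, 501 and 1256, a gain at both steps.

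The 12 genes higher at both steps were Lum, Dpt, Mgp, Loxl1, Ptn, Aqp1, Zfp36, Casp1, Aldoc, Marcks, Medag and Gask1b, the last 3 named after their values were seen. The water channel gene Aqp1 was at 105 in parental, 576 in BM1st and 2268 in BM2nd cells, and its other probes gave second-round ratios of 1.66 and 1.53. Marcks, which encodes a membrane protein that binds actin, was at 261, 542 and 1231, and Medag, a gene of adipocyte differentiation, at 139, 287 and 1086. The 4 lower at both steps were Trib3, Chchd10, Cox6a2 and 5430416N02Rik. The study named 19 genes with a probe here from these arrays, all but Cxcr4 above background. Of those 18, 7 were higher in the second round and none lower, a direction that is not independent since the genes were picked on these samples. They were Mgp, Loxl1, Dpt, S100a4, Aqp1, Lum and Tnc. Of the other 11 named, Nrp1, a coreceptor of VEGF and semaphorins, came closest at 0.94. Arhgdib, Ugt1a10, Aebp1 and Irf1 had second-round ratios of 0.26, 0.47, 0.15 and 0.40, so that most of their difference to parental cells was already there in BM1st cells.

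Several further genes stood among the extremes of the comparison without belonging to a list. Ly6c1, a surface protein gene of monocytes and endothelium, was at 1242, 269 and 1999, and since its neighbour Ly6c2 is nearly identical, which of them the probe reads is uncertain. Pclaf, a PCNA-binding factor of S phase, was at 568, 142 and 1174, Cdca3 at 889.8, 299.6 and 2058, and the mitotic kinase gene Pbk at 1418, 247 and 1432. These 3 took the same course as the listed cell division genes. By bounds, Ranbp3l was at least 5.64-fold higher in BM2nd cells, Lrrc17 at least 3.17-fold and the spindle gene Dlgap5 at least 2.9-fold. On the lower side Mllt11 was at 1249, 2613 and 567 and Csn3, the gene of kappa-casein, at 721, 1465 and 325. Pvr, the gene of a nectin-like adhesion protein, was at 682, 1547 and 369, and 2 of its other probes passed as well, at -1.80 and -1.10. Ifi207, an interferon-inducible gene of the p200 family, was at 93.4, 735 and 170.2, and Fam110c at 1809, 2012 and 412. Nptx1, Ngef, Creg1 and Layn had ratios of -2.003, -1.98, -2.05 and -1.80. On the lower side the bounds were 1700084E18Rik, at least 2.34-fold, Rdh9, at least 1.78-fold, and Ndrg4, at least 1.7-fold.

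Markers of other cell types moved beside these groups. Of 15 leukocyte markers above background, out of 23 named, none was higher and 3 were lower, or 7 with the background subtracted, and their summed intensity over all named markers was 2501 in parental, 7346 in BM1st and 4083 in BM2nd cells. The lysozyme genes Lyz1 and Lyz2, of macrophages and granulocytes, made up most of that sum in BM1st cells. Lyz2 was at 79.5, 1078 and 365 and Lyz1 at 159, 3169 and 1190.4, 2 genes of nearly the same sequence. Laptm5, of haematopoietic lysosomes, was at 90.1, 367 and 184, and Fcer1g, an Fc receptor chain, at 95.4, 255 and 128. The defining markers Itgam and Tyrobp were below background on both bone arrays, and Ptprc and Csf1r were at its edge, at 111 and 104 and at 128 and 116. Whether these genes have a part in the lower values of Ccl9, the lysosome genes or the NRF2 genes was not tested.

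Of 12 fibroblast and marrow stroma markers above background, out of 16 named, 5 were higher and none lower, with a summed intensity of 4601, 11697 and 19806. The 5 were Lum, Dpt, Col1a1, Col3a1 and Fbln1, all of them also members of the matrix lists, and Lum and Dcn made up most of the sum in both bone lines. Pdgfra, a receptor of fibroblasts, was at 258, 851 and 1068, a second-round ratio of 0.33. Col1a2, Pdgfrb and Thy1 were below background on both bone arrays, and Cxcl12 and Lepr were close to it, at 128 and 120.0 and at 107 and 109. The part of stromal cells in the gain of matrix genes was not tested. None of 9 lymphocyte markers was above background. Of 9 osteoclast, 11 endothelial, 6 erythroid, 5 adipocyte and 8 skeletal muscle markers 3, 3, 1, 1 and 1 were, and none of these passed the threshold. The labels call all 3 lines osteotropic Lewis lung carcinoma cells, whereas the paper uses that word for bone-selected cells and sets them against parental ones. Of 20 epithelial genes named 10 were above background on a bone array, and 5 on both. Krt8 and Krt18 were well above it on every array. Others were close to it, such as Cldn7, at 97.3 in BM1st and 117 in BM2nd cells, and Ocln, at 124 and 91.6.

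The methods state that the mice were male. Kdm5d and Eif2s3y, on the Y chromosome, were below background on all 3 arrays, and Uty was near it, at 115, 108 and 113. Xist, the transcript that silences the second X chromosome of female cells, was at 509 in parental, 580.3 in BM1st and 239.5 in BM2nd cells, a ratio of -1.28. Of its other probes 3 were above background, and they gave -1.02, -0.80 and -0.41, all in the same direction.

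A second probe on the same 2 arrays was the only further measure of a gene in the array data. For lumican the study also used PCR and Western blotting, and reported more of its mRNA and protein in BM2nd than in BM1st or parental cells. Of the 318 higher genes 147 had another probe above background, and 141 of these had the same sign and 62 also passed the threshold. Of the 188 lower genes 83 had one, 79 with the same sign and 33 past the threshold. No other probe passed in the opposite direction. Over all 4076 genes with another probe above background 49.7% of those probes were above 0, 80 passed 1 and 51 passed -1. By list, all 14 such mitosis genes were above 0 with 8 past the threshold (median 1.15), all 12 replication genes were above 0 with 5 past it, and all 7 genes of the integrated stress response were below 0 with 3 past it (median -0.99). Other lists were less even, as given for the immediate early and NRF2 genes, and of 10 matrix glycoproteins 6 were above 0, 3 of them past the threshold, and 1 was past it on the lower side. Other probes share the hybridisation and the RNA, so they bear on the probe and not on the culture.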

How the data were processed

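RNA of 3 cell lines was measured on Illumina mouse bead arrays with biotin label, 1 array per line. The authors deposited a table of linear intensity values for 45281 probes. The submitters' processing notes name GenomeStudio 2011.1, and how values were normalized or background-corrected was not given in the sources used here. Once sorted, the values of any 2 arrays lie within 0.274 of each other, the mark of quantile normalization, and with a median of 101 the background is still in them. Quantile normalization forces the same distribution on each array, so a change of most genes one way would not be seen.

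Probes were named through the platform annotation: 34885 had 1 gene, 18 had several and 10378 had none, and no symbol needed an update through the RefSeq table of GRCm38.p6. Log2 ratios were computed from the deposited intensities in pandas 2.3.3 and numpy 2.4.6 under Python 3.11.15, and drawn in matplotlib 3.10.9. The threshold of an absolute log2 ratio of 1 follows the study's methods. The counting was tested on simulated data. Where only 1 array was above background, a bound was formed, in which the larger of the dim intensity and its array's background divides the bright intensity.

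The genes, the 54 lists (1256 entries, 1184 with a named probe) and the motifs were chosen with earlier results of these data known, so no list is independent support. Named are the 15 highest and 15 lowest ratios of genes on both arrays above background, 5 bounds each way, the 8 strongest reversed genes each way, up to 4 members of each list, the genes the study named, the Y-linked genes and Xist; others were chosen after their values were seen. List genes without a paired probe were not analysed here. Alternatives varied the background level and filter, the probe choice, centring, background subtraction and the threshold.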

Additional observations from a re-analysis of the deposited data

How the results depend on the processing

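The counts of 318 higher, 188 lower and 200 reversed genes depend on the probe, the background and the threshold. Averaged over all probes of a gene, 192 were higher and 117 reversed (126 were lower), and 189 of the 192 and 123 of the 126 were among the genes counted before. With the background subtracted, 1028 were higher, 864 lower and 786 reversed, and the higher share of calls was 54.3% in place of 62.8%. At an absolute log2 ratio of 1.5, 136 were higher, 43 lower and 69 reversed. A background at the 99th percentile, both arrays above background, no filter and centred arrays kept each count within 1.5 times, and centring moved the median of all genes by -0.0076. Of the named genes 26 no longer passed averaged over probes, 39 more passed with the background subtracted and 1 more with centred arrays. None of the named genes that had passed changed direction. The genes that no longer passed averaged over probes were Acta2, Ccn4, Dlgap5, Egfr, Igfbp7, Krt8, Lig1, Mcm10, Mylk, Nusap1, Plat, Ptn, Rad54l, Rrm2, Tnc, Tyms, Aldoc and Parp14 among the higher and Aldh18a1, Lyz1, Mdm2, Myc, Npc1, P4ha1, Pfkp and Xist among the lower. List medians moved by more than the typical spread between probes of a gene in 9 lists averaged over probes, 23 with the background subtracted, 16 with no filter and 7 with both arrays above background. Averaged over probes, the median of the mitosis list went from 1.88 to 1.21, that of the integrated stress response from -0.999 to -0.577, that of the immediate early genes from 0.70 to 0.42 and that of DNA replication from 0.89 to 0.62. No paired analysis was possible because there is 1 array per line, and for the same reason no array could be left out. Bead arrays show little of a change near background, so an absent difference in a dim gene is not detectable here.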

Other observations

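Probes without a gene name also differed between the bone lines. Of 3139 such probes above background on the BM1st or BM2nd array, 48 were higher in BM2nd cells, or 1.53%, and 31 were lower, or 0.988%. Of the 318 higher genes 107 belonged to a list, and of the 188 lower genes 44 did.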
